A study of Mus musculus with 30 samples.

Results

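The peaks described here come from chromatin immunoprecipitation and sequencing (ChIP-seq) of POU6F1 fused to mCherry, called against the anti-mCherry precipitate of cells that expressed mCherry alone. They were chosen by this control. Of the 4 deposited peak lists, the lists of replicate 1 (31348 peaks) and replicate 2 (3630 peaks) were made in this way, of 142196 peaks in all, and they rest on 3 of the 30 samples. The intervals shared by both lists by at least 1 bp number 3463, and the account below is about these shared intervals. The other lists compare the same precipitates with rabbit IgG, and hold 82694 and 24524 peaks, of which 17994 intervals are shared.

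POU6F1 belongs to the POU family of transcription factors, which bind DNA through a POU-specific domain and a homeodomain joined by a linker. The family includes OCT4 (POU5F1), which sustains pluripotency, and the POU2 factors, which bind the octamer. POU6F1 is best known from the nervous system, and members of its class bind AT-rich sites that differ from the octamer.

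The study followed the ribonuclease DIS3 in early mouse embryos and asked where POU6F1 binds in embryonic stem cells (mESCs). The mESCs were derived from Dis3 flox/flox blastocysts, transfected by lipofection with pCAG-mCherry or pCAG-pou6f1-mCherry, and collected 48 h later. Each precipitate received 1 ug of anti-mCherry antibody or rabbit IgG. The protein was therefore tagged and driven by the strong CAG promoter from a plasmid, and the endogenous protein was not precipitated. Which derived line or lines were used is not named in the labels. The labels name 2 replicates of the anti-mCherry precipitate from Pou6f1-mCherry cells (pou6f1mch), 1 anti-mCherry precipitate from mCherry cells (mch) and 1 IgG precipitate from Pou6f1-mCherry cells. Both lists described here were thus called against the same control library, and each anti-mCherry library entered a list with either control. No RNA data of the mESCs were at hand, so the markers of these cells are given by binding alone. The read depth of the precipitates is unknown from the peak lists. Peaks of a list are not replicates of each other, and the shares below are descriptions without a test.

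Windows of 201 bases around the summit of replicate 1, the point of highest signal, show examples of sites, each chosen as strong among sites of its kind. The plus strand of GRCm38 is given, in lower case, with capitals for letters that match a motif on either strand, namely the GC box (GGGCGG) of SP and KLF factors, the NFY box (CCAATC), the CRE (TGACGTCA) of CREB and ATF factors, the core promoter element TATAAA, the octamer (ATGCAAAT) or the core of the POU6F family (TAATGAG). Windows with high enrichment near transcription start sites (TSSs) come from the promoters of Chml and Avpi1, chosen among windows with at most 30 bases annotated as UTR and outside Pou6f1.
Chml (chr1:175692886-175693086): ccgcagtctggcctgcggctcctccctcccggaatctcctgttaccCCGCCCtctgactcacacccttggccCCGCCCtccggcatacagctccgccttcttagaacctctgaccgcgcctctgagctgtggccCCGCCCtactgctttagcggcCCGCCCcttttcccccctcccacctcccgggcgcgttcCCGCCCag
Avpi1 (chr19:42129147-42129347): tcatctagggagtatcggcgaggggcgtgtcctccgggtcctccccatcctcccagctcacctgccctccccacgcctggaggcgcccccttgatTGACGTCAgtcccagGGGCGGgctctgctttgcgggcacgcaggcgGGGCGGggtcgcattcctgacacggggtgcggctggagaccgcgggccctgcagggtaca
The GC box occurs 5 times in the window of Chml and 2 times in that of Avpi1. Of the strongest windows more than 1 kb from any TSS, those shown lie in an intron of Itpkb, near Gm36933, and between genes near Gm49539. The latter holds an octamer beside its GC boxes.
Gm36933 (chr1:180387528-180387728): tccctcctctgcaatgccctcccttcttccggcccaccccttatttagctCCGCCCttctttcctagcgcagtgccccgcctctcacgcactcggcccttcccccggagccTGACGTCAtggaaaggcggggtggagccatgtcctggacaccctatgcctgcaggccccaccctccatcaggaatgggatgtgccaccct
Gm49539 (chr15:85634439-85634639): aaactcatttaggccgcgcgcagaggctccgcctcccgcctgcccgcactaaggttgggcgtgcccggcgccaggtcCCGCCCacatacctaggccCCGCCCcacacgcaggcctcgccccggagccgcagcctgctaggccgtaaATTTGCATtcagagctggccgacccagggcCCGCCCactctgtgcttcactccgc
A match to the octamer also lies in the promoter window of Zfp42, which encodes the pluripotency marker REX1, and in an intergenic window near Gm15707. The POU6F core was found in the promoter windows of Tspan14 and Tmem250-ps. These windows were chosen among those with the motif and do not stand for strong sites in general. In the strongest of 4 groups of equal size by the lower enrichment, the octamer lay in 0.577% of windows and the POU6F core in 0.346%.
Zfp42 (chr8:43307009-43307209): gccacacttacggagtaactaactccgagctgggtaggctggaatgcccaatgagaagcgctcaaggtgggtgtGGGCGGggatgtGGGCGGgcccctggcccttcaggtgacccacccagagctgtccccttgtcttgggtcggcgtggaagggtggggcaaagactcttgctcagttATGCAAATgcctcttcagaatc
Gm15707 (chr6:145340805-145341005): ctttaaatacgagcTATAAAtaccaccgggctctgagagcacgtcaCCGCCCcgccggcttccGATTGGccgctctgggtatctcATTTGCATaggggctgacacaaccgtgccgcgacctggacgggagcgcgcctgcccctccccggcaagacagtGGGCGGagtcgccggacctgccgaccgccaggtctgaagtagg
Tspan14 (chr14:40967085-40967285): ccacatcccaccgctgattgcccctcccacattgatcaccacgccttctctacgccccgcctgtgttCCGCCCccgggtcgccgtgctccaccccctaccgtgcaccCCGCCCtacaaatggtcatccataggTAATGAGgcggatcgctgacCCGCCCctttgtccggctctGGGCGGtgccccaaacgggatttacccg
Tmem250-ps (chr2:26140466-26140666): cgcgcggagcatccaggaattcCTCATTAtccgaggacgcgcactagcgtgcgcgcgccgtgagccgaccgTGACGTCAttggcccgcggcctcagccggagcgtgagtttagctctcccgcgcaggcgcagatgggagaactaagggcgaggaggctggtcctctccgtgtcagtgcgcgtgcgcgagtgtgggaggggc
For contrast, the window in an exon of Mansc1, near Gm43952, belongs to 1 of the 3 shared intervals without any peak in the IgG-control lists. It holds none of these motifs.
Gm43952 (chr6:134621573-134621773): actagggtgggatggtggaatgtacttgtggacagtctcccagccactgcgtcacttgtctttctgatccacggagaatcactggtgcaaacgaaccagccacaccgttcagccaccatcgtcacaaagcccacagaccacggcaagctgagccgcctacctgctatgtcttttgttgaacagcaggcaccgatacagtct

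The highest fold enrichment of all lay in the body of Pou6f1 itself (ENSMUSG00000009739), on the minus strand of chromosome 15. Within the gene, 10 shared intervals were found, and they matched the 10 coding exons of its transcript Pou6f1-202 one to one. Each interval contained its whole coding exon and reached 113 to 168 bp beyond the coding bases on either side. The summits of both replicates lay inside the coding part of the exon in 10 of 10. The fold enrichment, which is the ratio of precipitate to control given by the peak caller, ranged from 17.8 to 103 in replicate 1 and from 8.09 to 51.0 in replicate 2. Its maximum was over coding exon 10 (chr15:100578162-100578741), the last and longest with 343 coding bases, and its minimum over coding exon 3 (chr15:100587666-100588026) with 117. At the annotated promoter of Pou6f1, replicate 1 had a peak of 7.15 and replicate 2 had none.

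The order of enrichment was turned around by the control. Against IgG, which came from cells with the same plasmid, peaks over the coding exons reached 3.45 to 5.37 in replicate 1 (10 of 10 exons) and 1.32 to 1.98 in replicate 2 (7 of 10 exons). The ratio of the enrichment over mCherry cells to that over IgG had a median of 8.65 in replicate 1 (5.13 to 19.2) and 10.4 in replicate 2 (6.39 to 25.8). At the other shared intervals the median ratio was 0.639 (0.241 to 1.65, 3446 intervals) and 0.535 (0.169 to 1.96, 3426 intervals). Thus 0 other intervals reached the lowest ratio over Pou6f1 in either replicate. The Pou6f1 intervals also made up 8 of the 20 shared intervals with the highest enrichment in their lower replicate. The plasmid of the Pou6f1-mCherry cells carried the Pou6f1 coding sequence and that of the mCherry control cells did not, and the part of plasmid DNA in these intervals was not tested. Since short transcripts start inside the gene, 8 of the 10 counted as near a TSS.

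**Figure D1:**
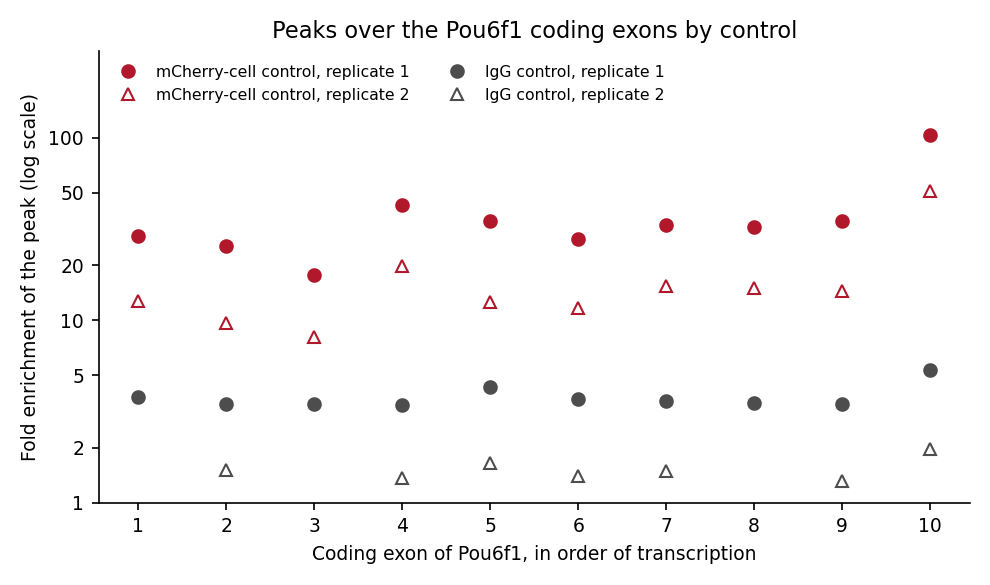
Fold enrichment (log scale) of the peaks over each of the 10 coding exons of Pou6f1, in order of transcription, for replicate 1 (filled circles) and replicate 2 (open triangles) against mCherry cells (red) or IgG (grey). Against mCherry cells, values lie between 8.09 and 103, and against IgG between 1.32 and 5.37, with no replicate 2 IgG peak over exons 1, 3 and 8.

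Over all shared intervals, the enrichment was higher in replicate 1 than in replicate 2 at 3435 of 3463 (99.2%). The median was 14.6 in replicate 1 and 4.90 in replicate 2, and the median ratio of the replicates was 2.99. Summits of the replicates lay a median of 31.0 bp apart. The shared intervals held 95.3% of the peaks of replicate 2 and 10.7% of those of replicate 1. Peaks of replicate 1 in shared intervals had a median enrichment of 14.6 and those outside had 5.26. The sites also found in replicate 2 were thus stronger at the median, though peaks outside reached 25.6. The lower of both enrichments reached 10 in 55 intervals (1.59%). A shared interval was 224 bp wide at the median (52 to 1377 bp).

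Outside Pou6f1, the strongest site by the lower of both enrichments lay over the TSS of Morc3, a nuclear ATPase of the MORC family (chr16:93831996-93832459). Its enrichment was 37.7 in replicate 1 and 15.4 in replicate 2. Fam136a, which encodes a mitochondrial protein, had 40.7 and 14.2 (chr6:86365416-86365689). The interval at the shared promoter of 2310022A10Rik and Pld3 had 21.3 and 12.2. Chml, a Rab escort protein, had 29.8 and 12.2, and Avpi1 had 22.5 in replicate 1. Against IgG the values were higher at Morc3 (39.0 and 16.7) and lower at 2310022A10Rik (18.5 and 9.13). Among sites far from a TSS, the intron of Itpkb reached 34.8 and 14.3, a site 39.7 kb from Gm10544 on chromosome 18 reached 22.1 and 12.1, and the intergenic sites near Gm49539, Gm7598 and Gm44734 reached 35.4 and 11.6, 24.9 and 10.4, and 29.0 and 9.80. The longest interval, of 1377 bp, covered the promoter of Ccdc9 (20.2 and 8.19), ahead of those of Ppp2r3d (899 bp), Garnl3 (852 bp) and Mgat1 (814 bp) and an exon of Clec11a (844 bp).

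Promoters held nearly all shared intervals. Within 1 kb of the TSS of a protein-coding gene lay 3090 (89.2%), and 67 more (1.93%) lay within 1 kb of another TSS. Of the rest, 48 (1.39%) were in exons, 100 (2.89%) in introns and 158 (4.56%) between genes. In all, 91.2% lay within 1 kb of a TSS, where 5.88% of the bases of the chromosomes lie, and 69.2% contained a TSS. The share near a TSS was 87.8% in the list of replicate 2 and 59.5% in the longer list of replicate 1. It did not follow strength, being 91.6%, 92.6%, 89.8% and 90.6% in 4 groups of equal size ordered by the lower enrichment, from weak to strong. The 306 distal intervals had median enrichments of 11.8 and 5.20, beside 14.8 and 4.87 for those near a TSS.

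**Figure D2:**
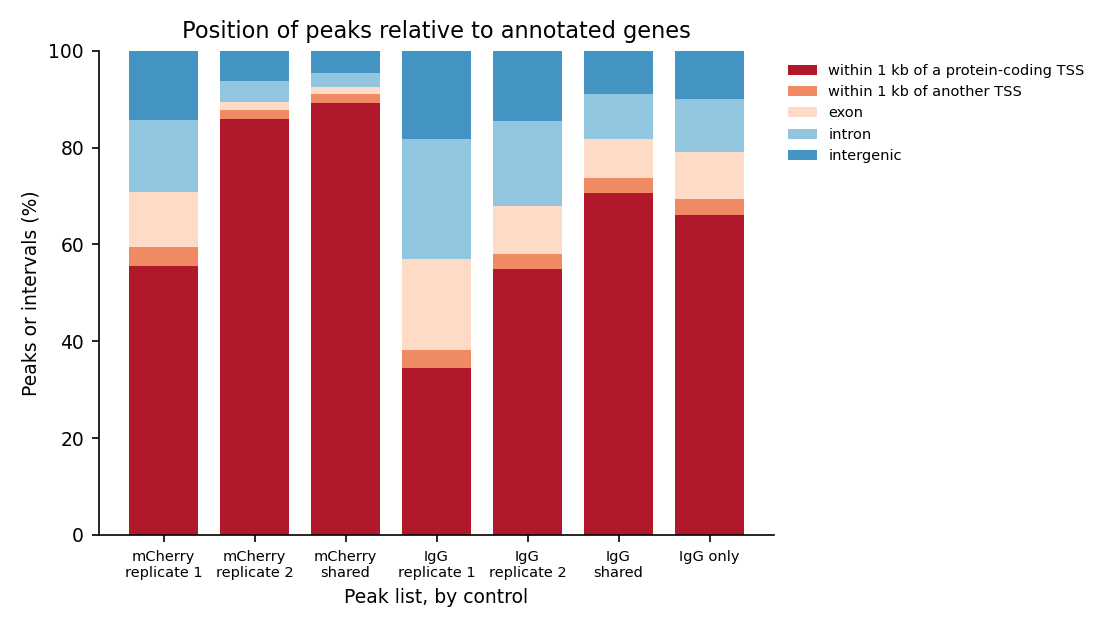
Share of peaks or shared intervals (%) in 5 position classes for the lists of each replicate and their shared intervals with either control, and the IgG-control shared intervals without a mCherry-control interval (IgG only). The class within 1 kb of a protein-coding TSS makes up 89.2% of the mCherry-control shared intervals, 70.6% of the IgG-control shared intervals and 66.1% of IgG only.

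The summits sat just upstream of the TSS. Of 3078 summits within 1 kb of a protein-coding TSS, 78.1% lay upstream, with a median position of -44 bp (quartiles -102 and -5), and 52.6% fell in the 100 bp before it. With the summits of replicate 2 the median was -48 bp. In the IgG-only intervals the median was -17 bp, 59.9% lay upstream and 38.7% fell in the same 100 bp.

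**Figure D3:**
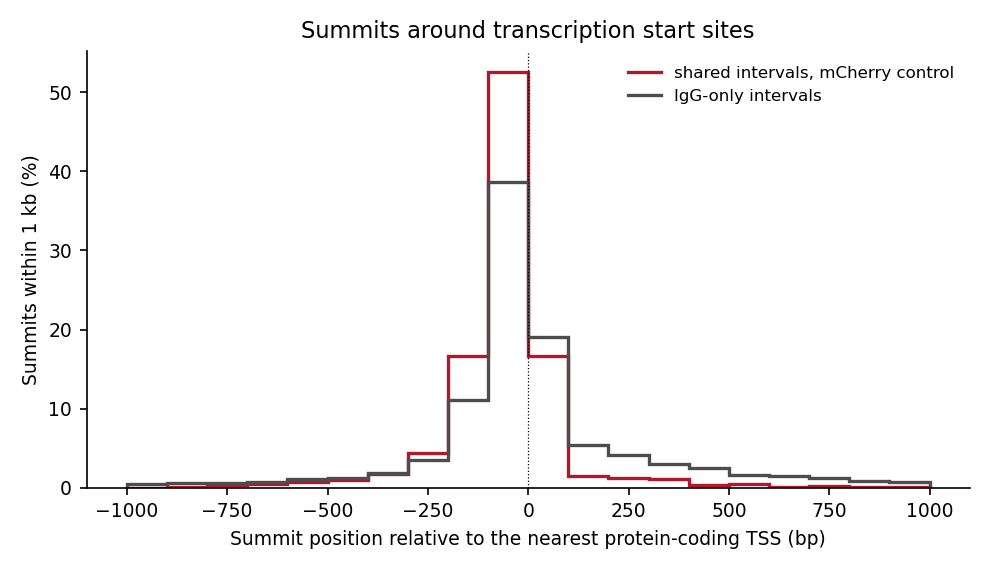
Share of summits within 1 kb of a protein-coding TSS (%) in bins of 100 bp by position relative to that TSS, for shared intervals of the mCherry control (red) and IgG-only intervals (grey). The bin just upstream holds 52.6% and 38.7%, and the shared intervals fall off faster downstream.

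By chromosome, chromosome 11 carried 411 shared intervals (11.9%), which is 3.37 per Mb and 25.1 for every 100 protein-coding genes. The X chromosome carried 118 (0.690 per Mb) and the Y chromosome 0. Chromosome 11 also held the most IgG-control shared intervals, with 13.1%.

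A gene was called occupied where any of its TSSs was at most 1 kb from a shared interval. This held for 3949 of 55413 annotated genes (7.13%), among them 3373 of 21938 protein-coding genes (15.4%). The IgG-control shared intervals reached 47.5% of protein-coding genes. Among other classes, 23.2% of the 190 bidirectional promoter lncRNAs were occupied, 5.27% of antisense genes and 2.12% of lincRNAs. At 844 of 3157 intervals near a TSS (26.7%), genes started on both strands, compared with 22.3% of the IgG-only intervals near a TSS. More than 1 shared interval was found at 189 occupied genes (4.79%).

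In short lists of lineage regulators, counts are few and were not tested. Of the 20 pluripotency factors, 4 were occupied (20.0%, beside 15.4% of protein-coding genes) and 15 had an IgG-control shared interval. The occupied ones were Zfp42 (18.5 in replicate 1 and 10.7 in replicate 2), Klf2 (7.86 and 4.41), Klf4 (10.2 and 3.75) and Stat3 (17.8 and 3.61). Of 15 trophectoderm factors, 13 primitive endoderm factors and 12 neural and germ layer factors, 0 were occupied in each list, while IgG-control shared intervals lay at 12, 8 and 8 of them. Besides Pou6f1 itself, Pou2f1, which encodes OCT1, was the other occupied gene among the 15 POU factors (21.5 and 6.35). Of 39 Hox genes, 1 was occupied, Hoxc13 (24.1 and 10.9).

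Other gene groups ranged from 34.8% to 0, beside 15.4% of protein-coding genes. Of 23 annotated genes of the RNA exosome and its cofactors, 8 were occupied (34.8%), led by the cofactor Mphosph6 (21.8 and 6.56), Wdr61 (19.5 and 6.18), the core subunit Exosc5 (20.4 and 5.63) and Ttc37 (4.51 in replicate 2). Mitochondrial ribosomal proteins were occupied at 22 of 78 (28.2%), with Mrpl48 first (24.2 and 9.07), and cytosolic ribosomal proteins at 18 of 79 (22.8%). Of the Hippo pathway, which sorts inner from outer cells in the morula, 5 of 18 were occupied, the kinases Stk4 (18.0 and 5.70) and Stk3 (22.4 and 5.01), the coactivators Wwtr1 (17.8 and 5.46) and Yap1 (9.84 and 5.35), and the scaffold Amot (13.5 and 4.23). Of 22 cell cycle genes, 5 were occupied, among them Ccne1 (7.62 in replicate 2) and its kinase Cdk2 (18.3 and 7.42), then Cdk4, Cdc25a and Ccnb1. Of 12 p53 targets, the apoptosis genes Bax (15.8 and 6.14) and Bbc3 (11.5 and 4.58) were occupied (16.7%, near the background of 15.4%). Zinc finger genes named Zfp were occupied at 47 of 394 (11.9%), led after Zfp42 by Zfp367 (20.9 and 9.21), Zfp473 and Zfp512. Replication-dependent histones were occupied at 2 of 67, where Hist1h3a and Hist1h4a share 1 interval (16.3 and 3.81). Among 1093 olfactory and 327 vomeronasal receptor genes, 0 were occupied. IgG-control shared intervals lay at 1 gene of each family, beside 47.5% of protein-coding genes.

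Genes that the study names in its text were mostly reached by replicate 1 alone. Within 1 kb of a TSS, that list reached 16115 of 55413 annotated genes, and the shared intervals reached 3949. The nearest shared interval lay 216 kb from a TSS of Nanog and 512 kb from a TSS of Cdx2. At Pou5f1 (OCT4) it lay 1.93 kb from the TSS (chr17:35503931-35504092), with enrichments of 5.73 and 6.01, and thus outside the window. It was 1103 kb from Sox2, 190 kb from Gata3, 91.1 kb from Gata4, 870 kb from Gata6 and 2541 kb from Dis3. The list of replicate 1 held a peak over a TSS of Sox2 (5.24), Gata3 (4.09), Gata4 (4.08), Gata6 (5.15), Dis3 (6.92), Nes (6.39) and Pax6 (4.48), and a peak 130 bp from Cdx2 (5.71). The nearest peak to Nanog was 4.10 kb away in the list of replicate 1 (5.22) and 4.52 kb away in that of replicate 2 (4.72), and these did not overlap, while an IgG-control shared interval lay 1.35 kb from it. For Cdx2, the nearest replicate 2 peak was 433 kb away and the nearest IgG-control shared interval 7.94 kb. A list of markers for these mESCs held Nanog, Pou5f1 and Fut4 for the stem cell state. It also held Nes and Pax6, which the study used as markers of differentiated cells. The study names SSEA-1, for which Fut4 was listed here, and it also measured Sox1 and Sox2, which were not listed. Of the list, 0 of 5 were occupied and 4 of 5 had an IgG-control shared interval. With 15.4% of protein-coding genes occupied, and 47.5% reached by IgG-control shared intervals, a list of 5 says little. Subunits of the trimeric factor NFY were occupied at Nfya (35.4 and 8.27) and Nfyb (20.8 and 6.34), while Nfyc had a replicate 1 peak alone (12.8) and Erbb2 likewise (4.29). Of the 10 transcripts that the study screened, Pou6f1, Cox6b2 (13.8 and 5.39) and Sox15 (10.6 and 3.46) were occupied, Pou6f1 through the intervals over its coding exons and not at its annotated promoter.

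Compared with the IgG-control lists, the mCherry control mainly shortened the list. Of the shared intervals, 3429 of 3463 overlapped an IgG-control shared interval, and 18.7% of the 17994 IgG-control shared intervals overlapped a shared interval of the mCherry control. Both sets rest on the same anti-mCherry libraries, so that this overlap does not stand for agreement of separate experiments. Outside the IgG-control shared intervals lay 34 (0.982%), of which 13 (38.2%) were near a TSS. They were led by 3 of the Pou6f1 intervals, then an intron of Fam120aos (11.1 and 6.59), a site near Gm3375 (7.11 and 6.29), a site near AC125101.1 (6.26 in replicate 2) and a site 477 bp from a TSS of Hdx, a homeobox gene (11.5 and 6.24). With no IgG peak in either replicate there remained 3, in exons of Mansc1 (5.52 and 5.08) and Cpt2 (4.98 and 5.33) and near Gm49032 (5.65 and 3.41). The largest ratio of mCherry-control to IgG-control enrichment outside Pou6f1 was 1.65 near Pdxk-ps in replicate 1 and 1.96 at Zfp42 in replicate 2.

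Which IgG-control intervals were found again depended on their enrichment. When these were ordered by their lower IgG enrichment in 10 groups of equal size, a shared interval of the mCherry control lay at 1.56% of group 1, 12.2% of group 7, 52.0% of group 9 and 87.2% of group 10. The share near a TSS was 61.3% in group 1 and 95.1% in group 10. Within group 10, 87.6% of those near a TSS and 79.8% of the others were found, so that most of the difference between groups was also present on either side of 1 kb. IgG-control intervals with a shared interval had a median width of 433 bp and IgG enrichments of 23.6 and 9.20, beside 202 bp, 9.64 and 4.84 for those without.

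**Figure D4:**
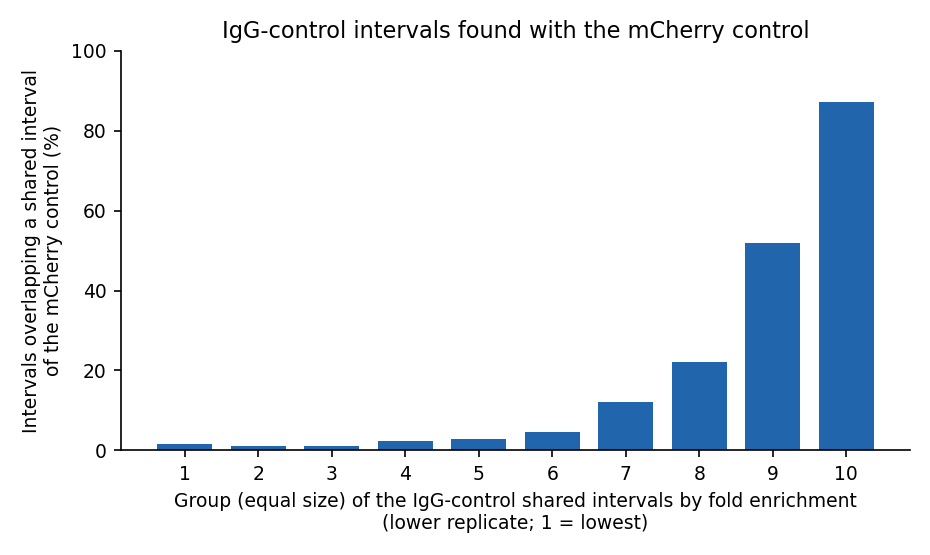
Share (%) of the 17994 IgG-control shared intervals that overlap a shared interval of the mCherry control, in 10 groups of equal size by their lower IgG fold enrichment, from lowest (1) to highest (10). The share stays under 5% up to group 6 and reaches 87.2% in group 10.

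The sequence under the summits was GC-rich and rarely held a POU site. In windows of 201 bp, the GC content had a median of 68.2% with 19 CpGs, beside 64.7% and 15 in the IgG-only intervals and 58.7% and 10 around the TSSs of all protein-coding genes. A GC box lay in 80.7% of the windows (95% Wilson interval 79.4 to 82.0), in 51.6% of the IgG-only windows and in 40.0% of TSS windows. Near a TSS the shares were 82.2% for shared and 62.9% for IgG-only intervals, and away from it 65.7% and 25.8%. The GC box closest to the summit was 23.5 bp away at the median. Several other promoter motifs were also more frequent than in IgG-only and TSS windows, with the NRF1 site (GCGCATGC) in 365 of 3463 (10.5%, beside 3.98% and 593 of 21938), the E-box (CACGTG) in 451 of 3463 (beside 8.63% and 5.68%), the ETS site (CCGGAAGT) in 6.99% (3.38% and 4.35%), the CRE in 4.07% (2.05% and 2.01%), the NFY box in 15.7% (10.8% and 12.8%) and the YY1 site (AAGATGGC) in 3.58% (2.18% and 2.79%). The core of the ZNF143 site was not, with 0.289% (0.294% and 0.542%). Near a TSS alone, NRF1 lay in 11.1% of shared and 4.84% of IgG-only windows, and the E-box in 12.7% and 9.02%. ETS lay in 7.35% and 4.46%, the CRE in 4.18% and 2.61%, NFY in 16.1% and 12.7%, and YY1 in 3.77% and 2.79%. Around the TSSs of occupied genes themselves, YY1 (5.48%), ETS (7.32%) and NFY (541 of 3373) sites were at least as frequent as under the summits. TATAAA was found in 1.21%, beside 1.38% of IgG-only windows, 2.10% around the TSSs of occupied genes and 8.08% of TSS windows.

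The POU6F core was present in 24 of 3463 windows (0.693%, Wilson interval 0.466 to 1.03), in 0.813% of IgG-only windows and in 1.55% of TSS windows. The octamer was present in 33 (0.953%), beside 0.677% and 0.880%, the homeodomain palindrome TAATTA in 0.549%, beside 0.478% and 2.38%, and the composite OCT4-SOX2 motif in 0. Far from TSSs, the octamer was found in 10 of 306 shared windows (3.27%) and in 0.560% of the IgG-only ones, the POU6F core in 1.63% and 1.21%, TAATTA in 1.96% and 0.919%, and the CTCF motif in 5.56% and 2.26%. The order of shared and IgG-only windows for the POU6F core thus changed with position, and it also changed with window length (0.462% and 0.362% with flanks of 50 bp, 2.08% and 2.75% with 250 bp). Windows with the POU6F core had median enrichments of 11.1 and 4.30, and those without it 14.6 and 4.91. These matches are to exact letters, and a window without them may still hold a related site.

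**Figure D5:**
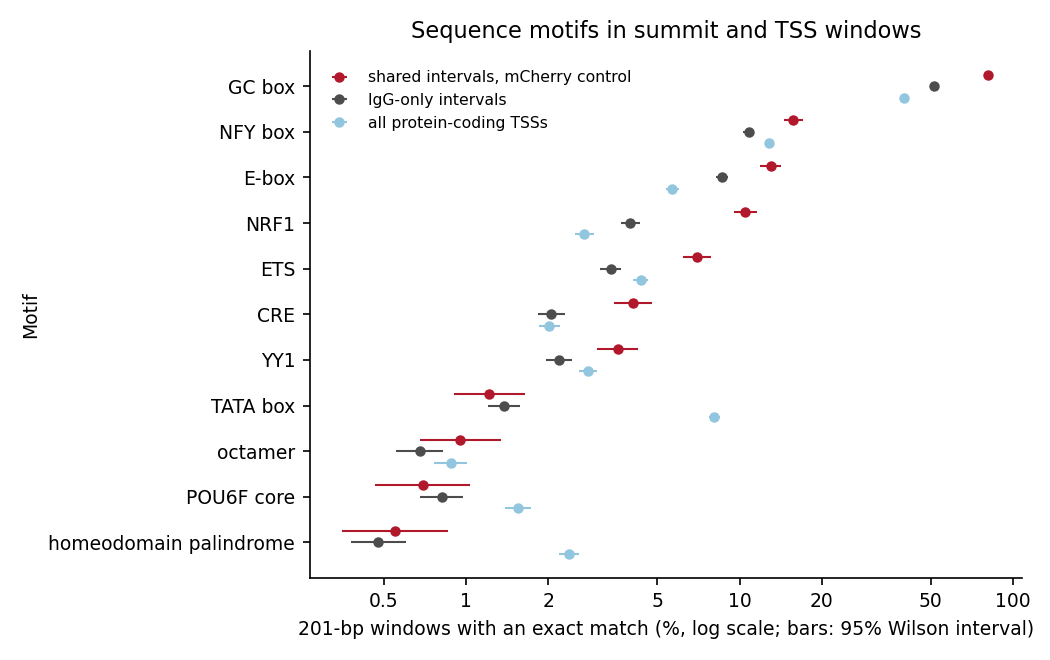
Share of 201-bp windows (%, log scale) with an exact match to each motif on either strand, with 95% Wilson intervals, for summits of shared intervals (red), summits of IgG-only intervals (grey) and TSSs of all protein-coding genes (blue). The GC box is found in 80.7%, 51.6% and 40.0%, and the POU6F core in 0.693%, 0.813% and 1.55%.

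Single-embryo RNA-seq of the same study showed how the occupied genes were expressed in embryos. The 23 embryos came from matings of mice heterozygous for a Dis3 null allele, in which exons had been deleted by CRISPR-Cas9. There were 4 null, 2 het and 6 wild-type embryos at E2.5 and 3 null, 5 het and 3 wild-type embryos at E2.75. Gene counts per library ranged from 1690192 to 14015980. In the 9 wild-type embryos, 79.9% to 87.7% of the 3368 occupied protein-coding genes in the count tables had at least 1 CPM (counts scaled to the library total), with a median of 80.8%. By stage, the share was 79.9% to 84.2% at E2.5 and 87.6% to 87.7% at E2.75. For the 7059 genes with only an IgG-control interval it was 63.7% to 71.9%, and for the 11457 genes with neither 20.8% to 26.0%, so that these ranges did not overlap. The median level, in CPM per kb of exon, was 3.24 to 6.30 for occupied genes, 1.14 to 2.60 for genes with only an IgG-control interval and 0 for the others. For occupied genes it was 3.24 to 4.42 at E2.5 and 6.27 to 6.30 at E2.75. Binding was measured in mESCs and expression in embryos, and fewer cells and less RNA per cell cannot be told apart in single embryos.

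How many occupied genes changed with loss of Dis3 depended on the scaling. Of 3949, 3202 (81.1%) passed edgeR's filter on low counts. With all embryos in the quasi-likelihood fit, 92 were called higher in 7 null than in 7 het embryos (2.87%, beside 3.67% of the 13415 genes tested) and 75 lower (2.34%, beside 2.06%), with 0.1 as the limit on the adjusted p and 1 as the limit on the size of the log2 fold change. In this fit both shares were near the background, and the median log2 fold change was -0.08, beside 0.02 over all genes. The count called lower also moved with single embryos, and was 45 to 90 with 1 embryo left out. With normalization to the ERCC spike-ins the median of all genes moved to -1.08 and that of occupied genes to -1.17. Then 55 were called higher (1.72%, beside 2.15%), and 1356 lower (42.3%, beside 33.4% of all genes). DESeq2 was run on 3782 occupied genes among 33616 with any reads, and gave medians of -0.01 and 0.18. It called 169 higher (4.47%, beside 3.71%) and 134 lower (3.54%, beside 1.63%). Genes that its own filter left without an adjusted p stayed in these totals and could not be called. Without the filter on low counts edgeR called 124 higher (3.28%, beside 3.77%) and 113 lower (2.99%, beside 1.61%). The share called lower thus lay above the background of these fits. That background was 33616 genes in place of 13415, while the occupied genes were 3782 in place of 3202. It thus gained many more genes with low counts, and how far this sets the excess was not tested.

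Among the 5 genes with the largest fitted rises was Thap8, a gene of the THAP zinc finger family. Thap8 lay at 1.03 to 8.38 CPM in null embryos (median 3.97) and at 0 in 7 of 7 het embryos (adjusted p = 0.0126, edgeR). Its null mean was about 95.3-fold a floor of 3 counts over the het libraries. The CPM of named genes were scaled to library sizes adjusted by edgeR, and such floors to unadjusted totals, so these folds are approximate. Mageb3, a member of the MAGE family, lay at 6.23 to 71.2 CPM in null and at 0 to 1.21 CPM in het embryos, with a log2 fold change of 6.72 (SE 1.05, adjusted p = 4.0e-04, edgeR). The antisense gene 1700105P06Rik (3.43 to 26.3 CPM in null, 0 to 0.129 CPM in het embryos), the snRNA Gm25360 (log2 fold change 6.76) and Gm26616 (6.46) were the others. In these 5 genes every null embryo was above every het embryo, but they were picked as the largest rises of this same comparison. The share of all tested genes with such a gap was not counted. Wild-type embryos reached into the null range for Thap8 (up to 5.36 CPM) and Gm26616. The counting ignored the strand, so reads of these genes and of genes that overlap them cannot be told apart. Among the falls, Zfp438, a zinc finger gene, lay at 0 to 1.22 CPM in null and at 0.860 to 17.9 CPM in het embryos (log2 fold change -4.64, SE 1.11, adjusted p = 0.0146, edgeR). Magi3, a scaffold of cell junctions (-4.91), Bcl9, Tmem132c (-5.04) and Tnfrsf9 (-4.20) also fell. Bcl9, a coactivator of WNT signalling, had 0 counts in 7 of 7 null embryos. By its het mean of 2.01 CPM it was about 23.8-fold lower, against a floor of 3 counts over the null libraries. Its het median was 0.106 CPM and its het maximum 6.03. In all 5 falls the null and het embryos overlapped. Tmem132c and Tnfrsf9 were called in 8 of 19 alternative fits each. Where they were not called, the log2 fold change of Tnfrsf9 was still -4.92 to -3.85, and that of Tmem132c was -5.17 to -2.95. The fall of Tmem132c was -2.95 with stage as a covariate and -3.35 without E2.75 het replicate 2, which had 57.9 CPM, and it was called in neither (adjusted p = 0.394 and 0.271, with 0.0131 to 0.481 over all alternatives). Stages were unevenly spread over null and het embryos.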

How the data were processed

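ChIP peaks of Pou6f1-mCherry mESCs and RNA of 23 single embryos were analysed. The authors aligned ChIP reads with Bowtie2 2.4.4 and called peaks with MACS2 2.2.7.1. The deposited narrowPeak columns hold a score, the fold enrichment over the control (a ratio), -log10 p and -log10 q, and the summit offset in bases. For RNA, the authors used Cutadapt 3.4, STAR 2.7.8a and HTSeq 0.11.4, and deposited read counts per gene without normalization.

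Members and gene lists were chosen with earlier results of these data known. Replicate lists were intersected (at least 1 bp) and annotated with GENCODE vM21 on GRCm38.p6, with own code in Python 3.11.15 (NumPy 2.4.6, SciPy 1.17.1, pandas 2.3.3, pysam 0.24.0, matplotlib 3.10.9). A gene was occupied within 1 kb of a TSS. Motifs were exact matches on both strands of 201-bp windows, with Wilson intervals. Intervals were named by rank of the lower of both enrichments, and genes in the RNA data by the 5 largest fitted rises and 5 largest fitted falls among called occupied genes. The methods of the paper name 3 replicates for ChIP, and the labels 2. No depth comes with the peaks, and the single control library per kind leaves the spread of the controls unknown.

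RNA of 7 null, 7 het and 9 wild-type embryos was fitted with edgeR 4.0.16 in R 4.3.3 (quasi-likelihood, Benjamini-Hochberg over all tested genes, adjusted p under 0.1, log2 fold change beyond 1), tested on simulated data. Gene counts per library ranged from 1690192 to 9993650 in null (median 4808323), 3009380 to 14013185 in het (8895879) and 3283708 to 14015980 in wild-type embryos (8644043). A gene at 1 CPM thus rests on few reads in the smallest libraries, and same-group pairs differed by a chi-square per gene of 25.1 to 205. Alternatives used DESeq2 1.42.0, other thresholds and windows, ERCC scaling, stage as a covariate, a replicate block and libraries left out. Some sites and genes are not reported here.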

Additional observations from a re-analysis of the deposited data

Results flagged for a closer look

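Values far from the others of their group were looked for in 30 tests (10 named genes in 3 groups of 4 or more embryos), of which 7 were marked. For normally distributed values, about 1 in 20 such groups is marked by chance. The CPM of these genes, with many at or near 0, need not follow this rate. The 7 of 30 are thus no measure of an excess. Thap8 had 5.36 CPM in E2.5 wild-type replicate 3 (next 0.290). Gm25360 had 0.301 CPM in E2.75 het replicate 2, where the others had 0, and 4.33 CPM in E2.5 wild-type replicate 3 (next 1.16). Tmem132c had 57.9 CPM in E2.75 het replicate 2 (next 11.6). Magi3 had 13.4 CPM in E2.75 het replicate 3 (next 1.36) and 10.1 CPM in E2.5 wild-type replicate 5 (next 3.71). Zfp438 had 1.22 CPM in E2.5 null replicate 3 (next 0.104). Beyond single genes, the share of occupied genes at 1 CPM or more was 84.2% in E2.5 wild-type replicate 4 (next 80.8%). The causes were not tested.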

How the results depend on the processing

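The number of shared intervals (3463) fell to 1679 when both enrichments had to reach 5 and to 1111 when the peaks had to overlap by 50% of each, and the single lists, with a replicate left out, hold 3630 to 31348. The share within 1 kb of a TSS (91.2%) became 92.5% at a -log10 q of at least 5, 83.3% with reciprocal overlap, 89.3% within 500 bp, 94.9% within 5 kb, 87.6% with coding transcripts alone, and 59.5% to 87.8% with a replicate left out. The share outside the IgG-control shared intervals (0.982%) became 0.0866% against any IgG peak, 0.465% at the stricter q, 2.07% with reciprocal overlap, and 1.71% to 1.73% with a replicate left out. Genes with an interval (3949) became 1927 at an enrichment of 5, 1171 with reciprocal overlap, and 3981 to 16115 with a replicate left out. The POU6F core (0.693%) was found in 0.462% of windows with flanks of 50 bp and in 2.08% with 250 bp, which follows from the window length, and in 0.836% to 0.882% with a replicate left out. Without the Pou6f1 intervals, 3453 remained, 91.2% near a TSS, 0.898% outside the IgG-control intervals and 0.695% with the POU6F core. The reciprocal overlap for shares and genes, the replicate left out for the POU6F core, the windows of 500 bp and 5 kb for expression in wild-type embryos and the removal of Pou6f1 were chosen after seeing the data. The median share of occupied genes at 1 CPM in wild-type embryos (80.8%) was 81.1% with 500 bp and 78.6% with 5 kb.

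The count of occupied genes called higher in null embryos was 92 as reported, 169 with DESeq2 and 55 with ERCC scaling. It was 43 with a replicate block (1.34%, beside 1.61% of all genes) and 69 to 101 with an embryo left out. The 69 came without E2.5 null replicate 4 (2.13%, beside 2.51%) and the 101 without E2.75 null replicate 2 (3.12%, beside 4.01%). These are separate counts of each fit. The count called lower was 75 as reported, 134 with DESeq2, 113 without a filter on low counts, 1356 with ERCC scaling, 31 with a replicate block (0.968%, beside 0.865% of all genes) and 45 to 90 with an embryo left out, with 48 without E2.5 null replicate 4 (1.48%, beside 1.31%) and 45 without E2.75 het replicate 1 (1.39%, beside 1.30%). In these last fits the share of all genes moved alongside, while with DESeq2 and without the filter it fell as the occupied share rose. The median log2 fold change (-0.08) became -1.17 with ERCC scaling, and -0.13 to -0.05 with an embryo left out. The block assumes that equal replicate numbers pair. In 5 pairs of null and het embryos with equal stage and number, the correlation was -0.10 to 0.068. It was over 0.1 in 0 pairs and highest for its own number in 1. No sign of pairing was seen, but 5 pairs cannot decide whether the numbers pair.

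Thap8, 1700105P06Rik, Gm25360, Mageb3, Gm26616 and Zfp438 were called in 19 of 19 alternatives. With the replicate block, Bcl9 (-6.84, adjusted p = 0.176) and Magi3 (-5.49, adjusted p = 0.135) were not called, and they were called in the other 18. Tmem132c and Tnfrsf9 were called in 8 of 19. Where Tnfrsf9 was not called, its log2 fold change was still -4.92 to -3.85 (adjusted p = 0.102 to 0.138, edgeR). That of Tmem132c came to -2.95 with stage as a covariate, -3.20 with the replicate block and -3.35 without E2.75 het replicate 2. In the other fits that did not call Tmem132c, it was still -5.17 to -4.79 (adjusted p = 0.109 to 0.152, edgeR). The causes were not tested.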
